A study of Mus musculus with 6 samples.

Results

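The proteasome is the large protease that degrades ubiquitin-tagged proteins. Its 20S core is a barrel of alpha rings, which form the gate, around beta rings, which carry the active sites. The 19S regulator caps the barrel, recognises and unfolds ubiquitinated substrates, and feeds them in. In lymphocytes and in cells exposed to interferon gamma, the inducible catalytic subunits encoded by Psmb8, Psmb9 and Psmb10 replace the constitutive ones encoded by Psmb5, Psmb6 and Psmb7, forming the immunoproteasome, which shapes the peptides presented by MHC class I molecules. Activated T cells, which make much new protein, depend on this machinery to turn protein over.

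The genes described here are those whose symbol in the deposited count table begins with Psm, a letter from a to g and a digit, without the symbols of pseudogenes. This rule uses names alone and found 50 of 54532 listed genes. There were 15 genes of the 20S core, 4 grouped as immunoproteasome, 17 of the 19S regulator, 6 of the activators, 7 that act in assembly, and Psmc3ip. The group of 4 held Psmb8, Psmb9 and Psmb10 and also Psmb11, which belongs to the thymus form (thymoproteasome). Psmc3ip matches the pattern of letters but encodes a meiotic recombination factor, so it is described apart.

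Levels were measured by poly(A)-selected RNA sequencing of splenic CD4+ T cells from wild type C57BL/6J mice. All mice had colitis induced by dextran sulfate sodium (DSS) in the drinking water. In 3 libraries the mice received a daily dose of the mucus-dwelling gut bacterium Akkermansia muciniphila, and in 3 libraries they were given phosphate-buffered saline (PBS). The mice were kept free of specific pathogens. The sources used here do not state age, sex, dose, how the cells were isolated or whether a library pools animals. The library descriptions name CD4, CD5 and CD6 for the libraries numbered 1, 2 and 3 of both groups, while the cell type entry of all 6 names CD4. The comparison asks whether proteasome transcripts differ between the treatments, particle by particle.

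The libraries held 15032257 to 16677923 counts. The 10 T cell markers were all detected, with a summed level of 4839 to 5124 CPM, counts scaled to library size, with Akkermansia and 4591 to 4833 CPM with PBS. Of these, 4 were called higher (Cd3e, Cd4, Cd5 and Thy1) and 1 lower, Cd28 (-0.87, log2, Akkermansia over PBS). Over all genes tested, 7.32% were called higher and 8.28% lower. Markers of other cells were present too, and those of some cell types differed between the groups. All 13 B cell markers were called higher, with summed levels of 1280 to 1454 CPM with Akkermansia and 883 to 912 CPM with PBS. Most of these sums came from Ighm, with means of 785 and 660 CPM and a log2 fold change of 0.25. The median over the 13 markers was 1.25. Both CD8 T cell markers were called higher (61.3 to 93.4 against 19.1 to 20.2 CPM), as were 4 of 8 NK cell markers (66.4 to 80.6 against 53.8 to 63.7 CPM) and 3 of 7 tested dendritic cell markers (37.1 to 41.7 against 16.6 to 24.4 CPM). Of monocyte and macrophage markers 1 of 9 was called higher (404 to 439 against 307 to 402 CPM), with a median log2 fold change of 0.07. Of neutrophil markers 1 of 6 tested was called higher (74.2 to 164 against 13.3 to 55.6 CPM). Of 7 erythroid markers (233 to 440 against 437 to 1011 CPM) edgeR called 0, DESeq2 called 2 lower and edgeR with a replicate block 1 lower. The globin genes Hbb-bs and Hbb-bt did not overlap between the groups (-1.25 and -1.28, log2). Some markers of these lists lay below 0 without a call, among them Klrb1c and Fcer1g (NK cells), C1qa and C1qb (macrophages) and Retnlg (neutrophils). No marker was at 0 in all libraries. B cells and other antigen-presenting cells also express proteasome genes, and in bulk samples fewer cells of a type and less RNA per cell cannot be told apart. The part of these cells in the results below was not tested.

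No member was called in either direction. By edgeR's quasi-likelihood test, 0 of 48 tested members passed an adjusted p of 0.05, against 15.6% of all 15138 genes tested. In the same test 4 members had an unadjusted p under 0.05 (Psma2, Psmg3, Psmc6 and Psmd14), against 30.1% of all genes, and at that p DESeq2 and limma-voom had 3 each. DESeq2 called 0 of 48 members, where it called 16.2% of all genes, and limma-voom called 0 of 48, where it called 15.2%. Among the 10692 genes whose mean level lay within the range of the tested members, 2.45 to 205.2 CPM, the called share was 17.4%. The smallest adjusted p of a member was 0.110, that of Psma2. Log2 fold changes below are Akkermansia over PBS, from the fit to counts.

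The 95% intervals bound how large a difference could have gone uncalled. For 45 of 48 members the interval lay within a 1.5-fold change in either direction. The exceptions to the 1.5-fold bound were Psme2 (fold change 1.31, interval 0.869 to 1.98), Psmg3 (1.65, interval 1.06 to 2.56) and Psmc3ip (0.722, interval 0.414 to 1.26). The median absolute log2 fold change was 0.10 over tested members and 0.22 over all genes tested. The groups did not overlap in 10 of 48 members, 5 higher and 5 lower with Akkermansia, against 34.9% of all genes tested. The 2 members that had too few reads to be tested were Psma8 and Psmb11.

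**Figure D1:**
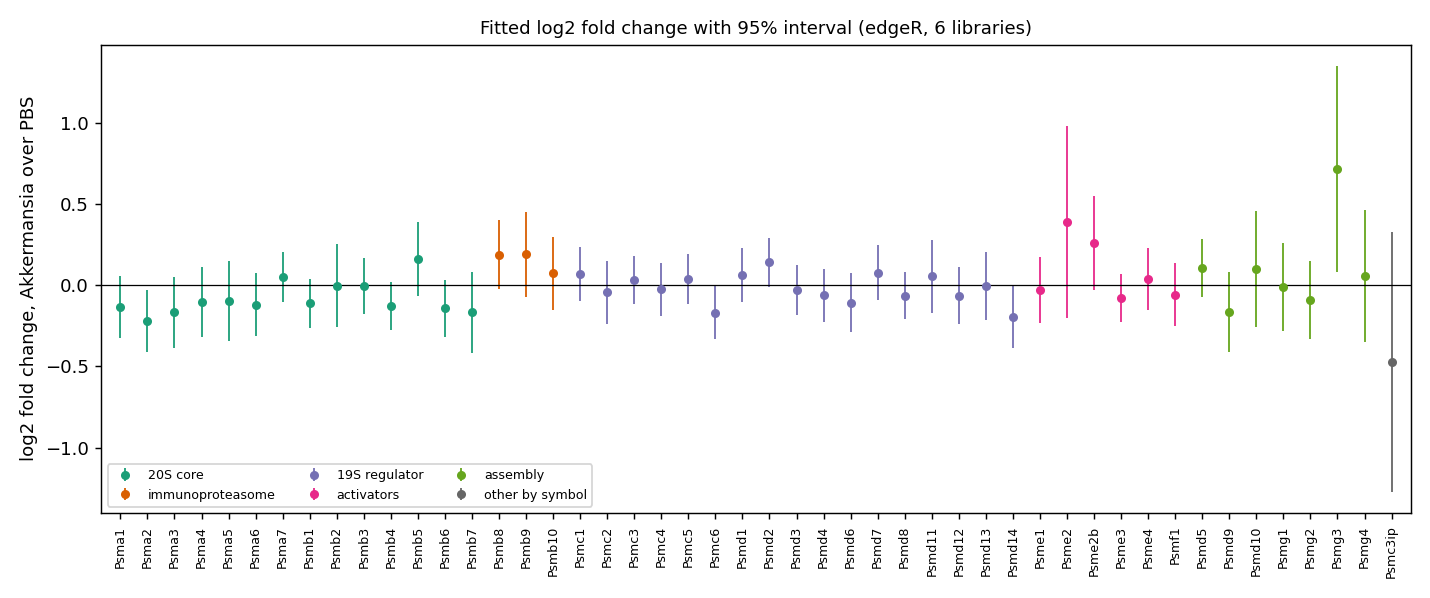
Fitted log2 fold change (Akkermansia over PBS, vertical axis) of the 48 tested genes, ordered and coloured by particle, with bars for the 95% interval of the edgeR fit to 3 against 3 libraries. All bars cross 0 except those of Psma2, Psmg3, Psmc6 and Psmd14, and the widest bars belong to Psme2, Psmg3 and Psmc3ip.

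The steady-state levels were compared between genes per length, as the deposited FPKM, a level scaled to gene length and library size. Over the 6 libraries the 7 genes of the alpha ring ranged from 15.7 FPKM for Psma3 to 58.9 FPKM for Psma6, a range of 3.75-fold within a ring that holds each subunit in equal number. The 6 ATPase genes of the 19S base spread over a like range, from 12.7 FPKM for Psmc2 to 48.4 FPKM for Psmc5, and the 8 lid genes from 9.78 FPKM for Psmd11 to 29.8 FPKM for Psmd8. The lowest level among the 17 regulator genes was that of Psmd1, a scaffold of the base, at 8.44 FPKM. Transcripts of the assembly factors were scarcer, with a median of 10.7 FPKM over 7 genes, from 0.937 FPKM for Psmg3 to 18.9 FPKM for Psmg2. The highest per length were those of the PA28 activator, Psme2b at 105 FPKM over the 6 libraries and Psme1 at 89.8 FPKM with Akkermansia and 91.0 FPKM with PBS. The level of Psme2b is uncertain, because its reads may be mixed with those of the near-identical Psme2. In CPM, not scaled to length, Psme2b had means of 96.1 with Akkermansia and 80.2 with PBS, below Psme1 with 198 and 202. Psmb8 followed, with 80.0 FPKM with Akkermansia and 69.7 FPKM with PBS.

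**Figure D2:**
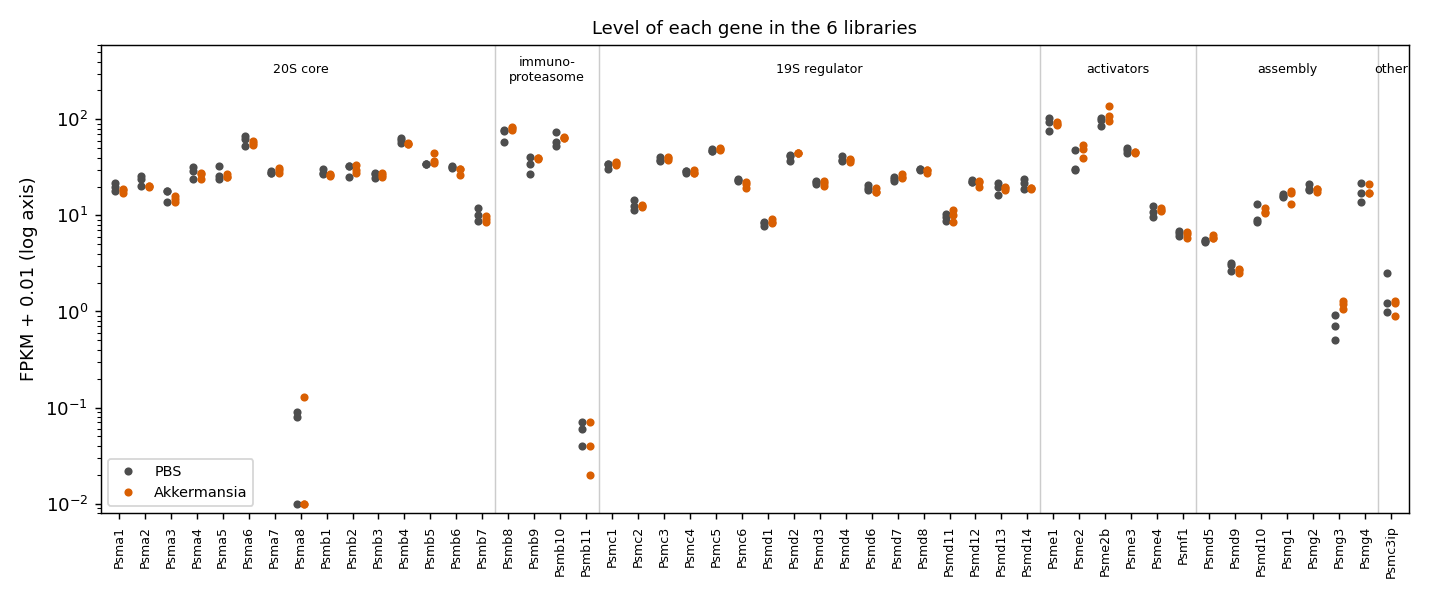
Deposited FPKM of all 50 genes (vertical log axis, with 0.01 added so that values of 0 can be drawn), 1 point per library, PBS in grey and Akkermansia in orange, ordered by particle. Levels differ far more between genes than between the groups, and Psma8 and Psmb11 lie near 0 in all 6 libraries.

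In the 20S core, 12 of 14 tested members had a log2 fold change below 0 and 2 above, beside 7722 of 15138 genes below 0. The median was -0.12 against -0.01 over all genes, and none was called. The 14 genes were read in the same 6 libraries, so they are not separate observations. That median was -0.047 without PBS 2 and -0.18 without PBS 3. Of the alpha ring genes 6 of 7 were below 0. Psma2, an alpha subunit, had 72.2, 74.9 and 74.0 CPM with Akkermansia and 88.9, 94.5 and 74.3 CPM with PBS. PBS 3 lay beside the Akkermansia libraries and the other PBS libraries above them, and the fitted difference was -0.22 ± 0.09 (log2, SE, n = 3 libraries per group, adjusted p = 0.110). In the fit without PBS 3, 3 members were called lower, Psma2 (-0.31, adjusted p = 0.0125), Psma3, another alpha subunit (-0.27, adjusted p = 0.0447), and Psmd14 of the lid (-0.28, adjusted p = 0.0354), where 16.3% of genes were called. The alpha ring summed to 191 ± 7.11 FPKM with Akkermansia and 204 ± 22.7 FPKM with PBS (SD, n = 3), groups that overlap. Psma8, the testis form of an alpha subunit, had counts of 0, 3 and 0 in the Akkermansia libraries against 0, 2 and 2 in the PBS libraries.

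Among the non-catalytic beta subunits, Psmb4 had 110.4, 107.3 and 108.3 CPM with Akkermansia and 125.6, 118.8 and 112.0 CPM with PBS, so that all Akkermansia libraries were below all PBS libraries. The difference was -0.13 ± 0.07 (log2, SE, adjusted p = 0.235). Psmb1, Psmb2 and Psmb3 overlapped between the groups, with log2 fold changes from -0.11 to -0.0020.

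The constitutive catalytic subunits lay on both sides of 0, and none was called. Psmb5, which carries the chymotrypsin-like site, had 31.62, 40.04 and 32.99 CPM with Akkermansia and 31.53, 30.86 and 31.09 CPM with PBS, with a difference of 0.16 ± 0.10 (log2, SE, adjusted p = 0.330). The groups do not overlap, although Akkermansia 1 was less than 1 CPM above PBS 1, and the difference was 0.05 without Akkermansia 2. Psmb6, which carries the caspase-like site, had 49.6, 56.7 and 56.9 CPM with Akkermansia and 61.5, 60.1 and 58.4 CPM with PBS, lower in every Akkermansia library (-0.14 ± 0.08, adjusted p = 0.270, and -0.07 without Akkermansia 1). Psmb7, which carries the trypsin-like site, had 31.3, 29.3 and 33.8 CPM with Akkermansia and 34.7, 41.0 and 30.2 CPM with PBS, with PBS 2 highest and the groups overlapping (-0.17 ± 0.12, adjusted p = 0.374).

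The inducible catalytic subunits all had log2 fold changes above 0, as did 7416 of 15138 genes tested, and none was called. Psmb8, the inducible counterpart of Psmb5, had 220.8, 225.4 and 209.9 CPM with Akkermansia and 207.7, 209.0 and 158.8 CPM with PBS. The groups do not overlap, but the gap to PBS 1 and PBS 2 is narrow and PBS 3 stands lower, for a difference of 0.19 ± 0.10 (log2, SE, adjusted p = 0.219). Psmb9, the counterpart of Psmb6, had 145.9, 143.4 and 139.2 CPM with Akkermansia and 127.0, 147.5 and 100.7 CPM with PBS, overlapping, with PBS 2 highest and PBS 3 lowest (0.19 ± 0.12, adjusted p = 0.311). Psmb10, the counterpart of Psmb7, had 110.1, 112.3 and 108.2 CPM with Akkermansia and 100.2, 124.1 and 89.8 CPM with PBS, with the same order of PBS libraries (0.07 ± 0.10, adjusted p = 0.682). The median of the 3 genes was 0.19 in all libraries and 0.06 without PBS 3. In the fit without PBS 2, Psmb9 was called higher (0.33, adjusted p = 0.0271), where 16.4% of genes were called. Psmb11, the catalytic subunit of thymic cortical epithelium, had counts of 2, 1 and 4 in the Akkermansia libraries against 5, 2 and 4 in the PBS libraries.

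The balance of inducible over constitutive subunits was taken within each library, as a ratio of FPKM values, which scaling by library size does not affect. Psmb8 over Psmb5 was 2.29, 1.85 and 2.09 with Akkermansia and 2.16, 2.23 and 1.68 with PBS. Psmb9 over Psmb6 was 1.51, 1.29 and 1.25 with Akkermansia and 1.06, 1.26 and 0.882 with PBS. Both pairs overlap between the groups. Psmb10 over Psmb7 was 7.06, 7.69 and 6.43 with Akkermansia and 5.79, 6.07 and 5.96 with PBS, higher in each Akkermansia library than in any PBS library. Summed over the 3 pairs, the ratio was 2.39 ± 0.196 with Akkermansia and 2.15 ± 0.283 with PBS (SD, n = 3), and the groups overlap. In 5 of 6 libraries each of the 3 inducible transcripts was above its constitutive counterpart, the exception being Psmb9 over Psmb6 in PBS 3. These ratios are descriptions with no test. The B cell markers given above were higher in the Akkermansia libraries, and their part in these ratios was not tested.

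**Figure D3:**
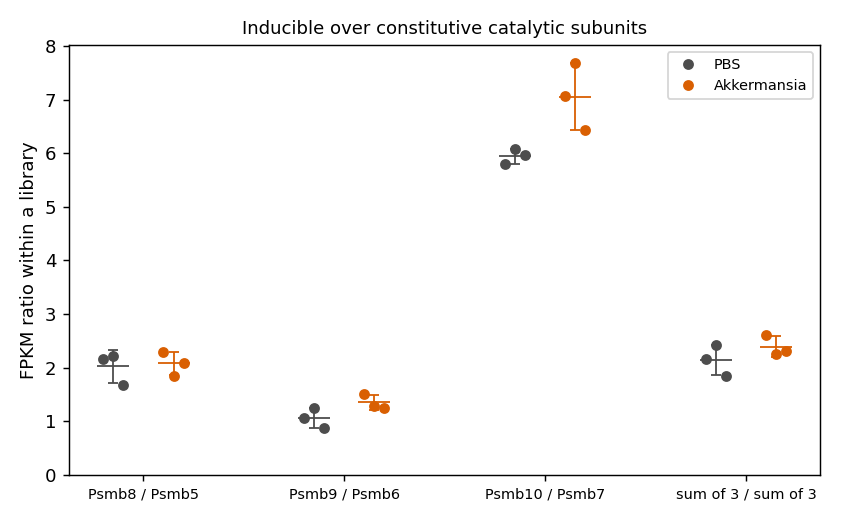
Ratio of FPKM values within each library (vertical axis, starting at 0) for the 3 pairs of inducible and constitutive catalytic subunits and for their sums, with 1 point per library and the mean ± SD of 3 libraries as bars. Only the points for Psmb10 over Psmb7 do not overlap between PBS (5.79 to 6.07) and Akkermansia (6.43 to 7.69).

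The promoters of the members were searched for elements of factors that drive proteasome genes, among them NRF1, a CNC factor that pairs with small MAF proteins, and the interferon factors, in RefSeq windows (build GRCm38.p6) of 250 bases before to 50 after the start of transcription. A window was found for 42 members and not for Psma8, Psmb1, Psmb2, Psmb7, Psmc3, Psmd3, Psmd7 and Psmg2. Both strands were searched, each motif on its own, so that overlapping matches of different motifs would each count. The CNC-MAF element TGACNNNGC was found in 6 of 42 members, 14.3%, against 14.0% of 27025 genes. An interferon-stimulated element, written as 2 copies of GAAA with 2 bases between them, was found in 5 of 42, 11.9%, against 3.99%. These 5 were Psmb3, Psmd4, Psmd9, Psme1 and Psmg4, with none of Psmb8, Psmb9 and Psmb10 among them. The STAT element TTCNNNGAA was found in 3 members (7.14% against 9.55%), the heat shock element GAANNTTC in 3 (7.14% against 9.04%) and CCAAT in 15 (35.7% against 41.1%). Of the catalytic genes with a window, Psmb5 and Psmb6 held the CNC-MAF letters, Psmb8 the STAT letters and Psmb5 and Psmb9 the heat shock letters. The stretches upstream of the start are shown because these genes form the constitutive and inducible sides of the comparison above, with the CNC-MAF or STAT match in capitals and neighbouring bases in lower case. Those of Psmb5 and Psmb6 run up to the start, and that of Psmb8 ends before it. They lie at chr14:54617996-54618082 (minus strand) for Psmb5, chr11:70525308-70525356 (plus strand) for Psmb6 and chr17:34198058-34198146 (plus strand) for Psmb8.
Psmb5: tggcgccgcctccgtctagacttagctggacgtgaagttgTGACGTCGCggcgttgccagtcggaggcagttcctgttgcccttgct
Psmb6: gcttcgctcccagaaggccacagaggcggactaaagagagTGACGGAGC
Psmb8: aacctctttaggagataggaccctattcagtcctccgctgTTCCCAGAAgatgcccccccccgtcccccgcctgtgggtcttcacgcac
A match of letters is a description and not a site of binding. No member was called, Psmb5 and Psmb6 included, so the calls cannot separate members that hold a motif from those that do not.

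None of the 19S regulator genes was called. Of the 17 genes 7 were above 0 and 10 below, with a median of -0.02 and a range of -0.19 to 0.14. The 95% intervals of all 17 lay between -0.39 and 0.29. The regulator summed to 441 ± 3.31 FPKM with Akkermansia and 440 ± 17.8 FPKM with PBS (SD, n = 3). Psmc6, an ATPase of the base, had 67.0, 74.8 and 77.3 CPM with Akkermansia and 80.2, 83.4 and 82.5 CPM with PBS, lower in each Akkermansia library (-0.17 ± 0.08, log2, SE, adjusted p = 0.152). Psmd14, the lid deubiquitinase that removes ubiquitin chains from substrates, had 53.9, 53.3 and 53.7 CPM with Akkermansia and 62.6, 67.5 and 54.2 CPM with PBS, where PBS 3 lies within 1 CPM of the Akkermansia libraries (-0.19 ± 0.09, adjusted p = 0.160). Psmd2, the large scaffold of the base, went the other way, with 181.7, 178.9 and 181.2 CPM against 168.1, 171.5 and 151.5 CPM (0.14 ± 0.07, adjusted p = 0.187). Psmd8 of the lid had 85.6, 91.7 and 90.4 CPM with Akkermansia and 94.9, 92.5 and 92.4 CPM with PBS (-0.06 ± 0.07, adjusted p = 0.571). The groups did not overlap in these 4 of the 17 regulator genes, against 34.9% of all genes tested. Psmc5, the most abundant regulator transcript per length, and Psmd1, the least, had differences of 0.04 ± 0.07 and 0.07 ± 0.08 (adjusted p = 0.771 and 0.618).

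Of the activator genes 3 were above 0 and 3 below, with a median of 0.0050. Psme1 and Psme2 encode the alpha and beta subunits of PA28, which opens the 20S gate and is induced by interferon gamma together with the immunoproteasome. Psme1 had 192.2, 195.6 and 206.9 CPM with Akkermansia and 211.5, 224.9 and 170.1 CPM with PBS, with the Akkermansia libraries inside the range of the PBS libraries (-0.03 ± 0.09, log2, SE, adjusted p = 0.877). Psme2 had 86.5, 96.4 and 68.7 CPM with Akkermansia and 54.6, 85.0 and 52.6 CPM with PBS, overlapping through Akkermansia 3 and PBS 2 (0.39 ± 0.23, adjusted p = 0.343). Psme2b, a close copy of Psme2, had 81.3, 91.6 and 115.5 CPM with Akkermansia and 87.3, 82.0 and 71.2 CPM with PBS (0.26 ± 0.13, adjusted p = 0.208).

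Psme2 and Psme2b are near-identical, so the division of reads between them is uncertain. Psme2 took 51.6%, 51.3% and 37.3% of their joint counts with Akkermansia and 38.5%, 50.9% and 42.5% with PBS. In an analysis chosen after these values were seen, the genes were summed before the fit. The sum was 167.8, 188.0 and 184.2 CPM with Akkermansia and 141.9, 167.0 and 123.8 CPM with PBS. Every Akkermansia library then lay above every PBS library, although Akkermansia 1 and PBS 2 differ by less than 1 CPM. The summed feature was called higher (0.32 ± 0.10, log2, SE, adjusted p = 0.0484, 95% interval 0.10 to 0.54), just inside the threshold, where 15.6% of 15137 genes were called. Psme2 alone was called higher without PBS 2 (0.65, adjusted p = 0.0106) and with the replicate number as a block (0.41, adjusted p = 0.00980), and Psme2b alone with no filter on low counts (0.28, adjusted p = 0.0130), where the shares of all genes called were 16.4%, 16.8% and 10.7%.

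The other regulators of the core were not called. Psme3, the nuclear PA28 gamma, had 134 CPM (132.0 to 135.8) with Akkermansia and 141 CPM (132.6 to 149.5) with PBS (-0.08 ± 0.07, adjusted p = 0.501). Psme4, the activator PA200, had 92.3 to 99.1 CPM with Akkermansia and 81.1 to 104.8 CPM with PBS (0.04 ± 0.09, adjusted p = 0.819). Psmf1, the 20S-binding protein PI31, had a difference of -0.06 ± 0.09 (adjusted p = 0.724).

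Among the assembly factors, 4 of 7 were above 0 and 3 below, with a median of 0.06. Psmg1, Psmg2, Psmg3 and Psmg4 encode the chaperones that build the alpha ring. Psmg3 had the largest difference of any tested member and the fewest reads of the 7, with counts of 58, 52 and 45 in the Akkermansia libraries against 34, 40 and 24 in the PBS libraries. That corresponds to 3.67, 3.47 and 2.98 CPM against 2.05, 2.63 and 1.47 CPM, higher in each Akkermansia library (0.72 ± 0.29, log2, SE, 95% interval 0.08 to 1.35, adjusted p = 0.118). The other chaperones of the ring lay nearer 0. Psmg1 had a difference of -0.01 ± 0.13 (adjusted p = 0.967), Psmg2 of -0.09 ± 0.11 (0.635) and Psmg4 of 0.06 ± 0.19 (0.867). Of the chaperones of the 19S base, Psmd5 had 41.7, 41.9 and 44.7 CPM with Akkermansia and 39.1, 40.2 and 39.9 CPM with PBS, not overlapping (0.11 ± 0.08, adjusted p = 0.432). Psmd9 and Psmd10 overlapped (-0.17 ± 0.11 and 0.10 ± 0.17, adjusted p = 0.365 and 0.736). Psmc3ip, the recombination factor, had counts of 37, 33 and 24 in the Akkermansia libraries against 37, 69 and 29 in the PBS libraries (-0.47 ± 0.37, adjusted p = 0.435).

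Genes in general spread more among the PBS libraries than among the Akkermansia libraries, the proteasome genes included. The SD of log2 CPM was larger with PBS in 34 of 48 members, 70.8%, and in 62.3% of all genes tested. The median SD of members was 0.12 with PBS and 0.07 with Akkermansia, and that of all genes 0.18 with PBS and 0.13 with Akkermansia. PBS 2 was the highest of the 6 libraries in 18 members and PBS 3 the lowest in 18, 37.5% in each case, against 19.3% and 16.3% of all genes. All 3 inducible catalytic genes were lowest in PBS 3, with a median log2 deviation from the 6-library mean of -0.36 there and 0.15 in PBS 2. For the 20S core these deviations were -0.10 in PBS 3 and 0.16 in PBS 2. PBS 3 was also lowest in 8 of 11 genes for loading peptides onto MHC class I, which are described with the partners of the proteasome.

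**Figure D4:**
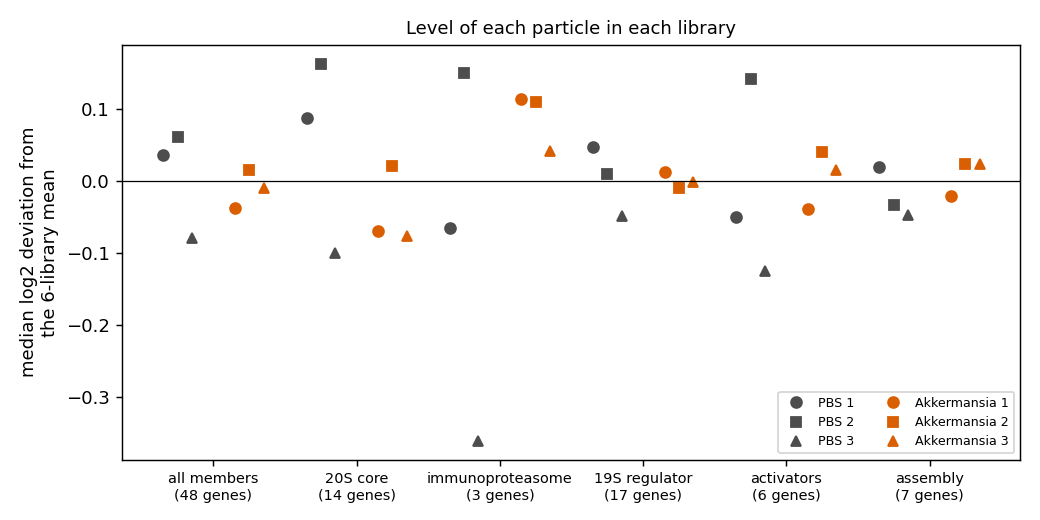
Median over genes of the log2 deviation from the 6-library mean (vertical axis) for all tested genes of the rule and for each particle, with PBS libraries in grey, Akkermansia libraries in orange and the replicate number as the shape. PBS 2 and PBS 3 lie on opposite sides for the 20S core, the immunoproteasome and the activators, and the Akkermansia libraries lie between them.

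Genes that work with the proteasome were read from 5 lists of 49 tested genes in all, and some of them were called. The median log2 fold change was 0.19 over the NRF1 axis, -0.06 over proteasome partners, -0.0089 over ubiquitin genes and shuttles, 0.11 over MHC class I loading and -0.07 over interferon gamma signalling, beside -0.0081 over all genes tested. Of 7 genes of the NRF1 axis, 3 rose and 2 fell, beside 7.32% of all genes called higher and 8.28% called lower. NRF1, encoded by Nfe2l1, is a transcription factor of the CNC family that drives proteasome genes when protease activity is short. Nfe2l1 had 100.5, 111.3 and 102.6 CPM with Akkermansia and 73.6, 78.7 and 79.5 CPM with PBS, well apart, and rose by 0.44 ± 0.07 (log2, SE, adjusted p = 0.00169). Ddi2, the protease that cleaves NRF1 into its active form, rose by 0.24 ± 0.07 (adjusted p = 0.0423), and Vcp, the ATPase that extracts it from the endoplasmic reticulum, by 0.24 ± 0.07 (adjusted p = 0.0389). Mafk, a small MAF protein that pairs with CNC factors on DNA, had 142.8, 153.7 and 153.0 CPM with Akkermansia and 259.6, 192.6 and 283.2 CPM with PBS and fell by 0.71 ± 0.13 (adjusted p = 0.00655). Mafg, another small MAF gene, fell by 0.42 ± 0.13 (adjusted p = 0.0447) and is named after its value was seen. Ngly1, which deglycosylates NRF1, and Nfe2l2, which encodes the related NRF2, were not called (-0.21 and 0.19, adjusted p = 0.126 and 0.119). Among the 16 alternatives, Ngly1 was called lower only in the fit without PBS 3.

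Nfe2l1 and Mafk were called under each of the alternatives run. Ddi2 was not called in any of the 6 fits without 1 library except that without Akkermansia 3, and Vcp lost its call in the fits leaving out Akkermansia 2, Akkermansia 3, PBS 1 or PBS 2, so the rises of this list numbered 1 without Akkermansia 2, PBS 1 or PBS 2. Mafg was not called by limma-voom and was called in only 1 of the fits without 1 library, that without PBS 2, and the falls of this list numbered 1 in each fit that left out an Akkermansia library or PBS 1. On both FPKM scales this list held 1 rise and 1 fall, the list of ubiquitin genes held 2 rises and no fall, and the MHC class I list held 2 rises. The cause was not tested.

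Of 12 tested partners outside the symbol pattern, 2 fell and none rose, beside 8.28% of all genes called lower and 7.32% called higher. Zfand5, a ubiquitin-binding protein that activates the 26S proteasome, had 96.8, 99.9 and 106.7 CPM with Akkermansia and 140.7, 123.1 and 137.4 CPM with PBS. The groups lay apart, and it fell by 0.40 ± 0.07 (log2, SE, adjusted p = 0.00351) and was called under each alternative run. Txnl1, a thioredoxin-like protein bound to the 19S regulator, fell by 0.34 ± 0.09 (adjusted p = 0.0229) and was not called in any fit that left out an Akkermansia library or PBS 1, nor on the log2(FPKM + 1) scale. The true subunits and chaperones of this list were not called: Adrm1, a ubiquitin receptor of the base (-0.10, adjusted p = 0.507), Sem1 of the lid (-0.05, 0.817) and Pomp, which matures the core (-0.08, 0.575).

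Of 12 ubiquitin genes, activating enzymes and shuttle factors, 2 rose and 2 fell, beside 7.32% of all genes called higher and 8.28% called lower. Uba1, the main ubiquitin-activating enzyme, rose by 0.29 ± 0.07 (log2, SE, adjusted p = 0.0146), and the shuttle factor Ubqln1 by 0.30 ± 0.07 (adjusted p = 0.0149). Ubb, a polyubiquitin gene, fell by 0.32 ± 0.09 (adjusted p = 0.0326), with 448 ± 12.1 CPM under Akkermansia and 559 ± 80.0 CPM under PBS (SD, n = 3). Uba6, another activating enzyme, also fell (-0.31, adjusted p = 0.0348), but was not called in 10 of 16 alternatives, among them DESeq2 (adjusted p = 0.0582), no filter on low counts (0.0719) and the replicate block (0.0501). No gene of this list was called in the fits without Akkermansia 2, Akkermansia 3 or PBS 1, and none fell without Akkermansia 1.

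Of 11 genes for loading peptides onto MHC class I, 4 rose and none fell, beside 7.32% of all genes called higher and 8.28% called lower. Tapbpl, a peptide editor, rose by 0.35 ± 0.07 (log2, SE, adjusted p = 0.00620) and the chaperone Canx by 0.31 ± 0.08 (adjusted p = 0.0188). The transporter subunit Tap2 rose by 0.29 ± 0.08 (adjusted p = 0.0223) and the disulfide isomerase Pdia3 by 0.23 ± 0.07 (adjusted p = 0.0327). Tap1, the partner of Tap2 whose gene adjoins Psmb9, was not called (0.10, adjusted p = 0.579). The rises numbered 1 without Akkermansia 2 or Akkermansia 3 and 2 without Akkermansia 1 or PBS 1, where Tapbpl remained called. Among 7 genes of interferon gamma signalling to the immunoproteasome, Ifngr2, a receptor subunit, had 61.5, 58.3 and 58.0 CPM with Akkermansia and 88.3, 69.6 and 89.2 CPM with PBS and fell by 0.48 ± 0.10 (log2, SE, adjusted p = 0.00533), also under each alternative run. The kinase Jak2 fell with it only in the fit without PBS 3, so that this list then held 2 falls, while the regulators Irf1 and Nlrc5 were not called (-0.19 and 0.0022, adjusted p = 0.122 and 0.991). All 13 B cell markers were higher in the Akkermansia libraries too, and their part in the calls of these lists was not tested.

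**Figure D5:**
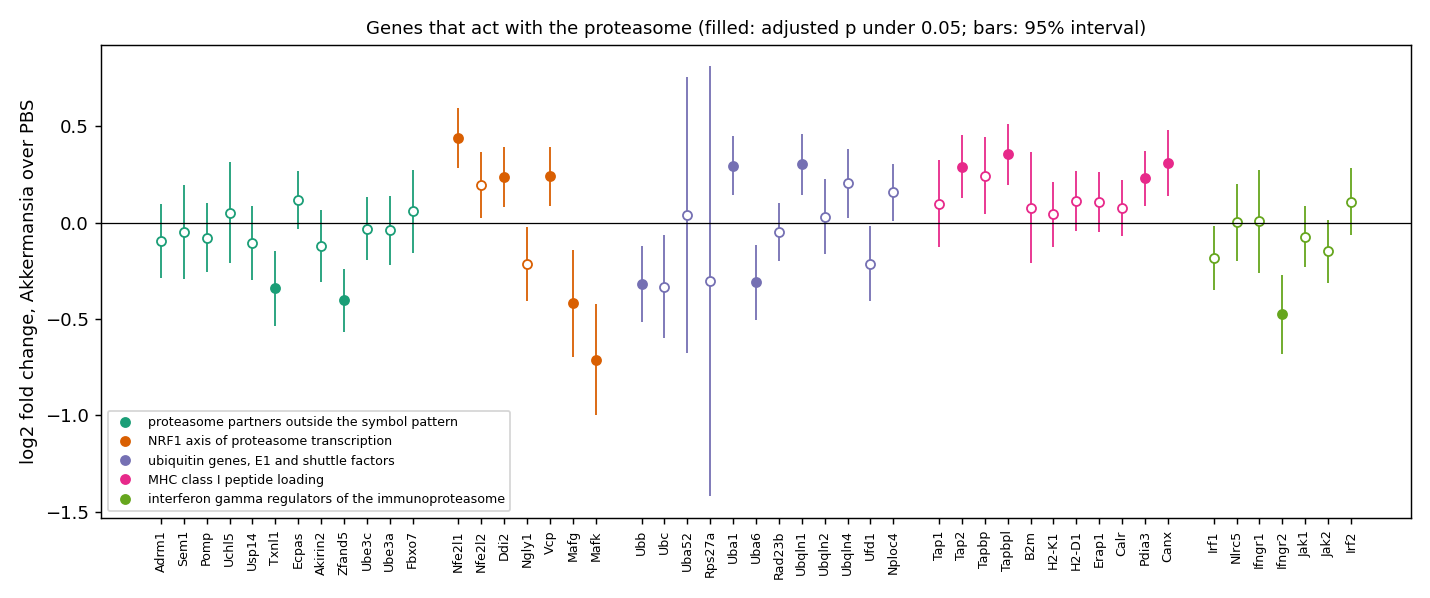
Fitted log2 fold change (Akkermansia over PBS, vertical axis) of the 49 tested genes in 5 lists that act with the proteasome, with bars for the 95% interval, filled points for an adjusted p under 0.05 and open points otherwise. Nfe2l1 (0.44) and Mafk (-0.71) lie farthest from 0 among the filled points of each sign.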

How the data were processed

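Messenger RNA of 6 libraries was measured by poly(A)-selected sequencing, per the labels' protocols. The authors deposited raw counts per gene and FPKM values (scaled to gene length and library size). Reads were placed on GRCm39 per the submitters' processing notes, and the sources used here do not name the aligner, counter, annotation or strand setting. Groups were taken from the sample titles. The series' design text calls the libraries of each group biological replicates.

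Counts were fitted over all 54532 listed genes with edgeR 4.0.16 in R 4.3.3: filterByExpr (minimum count 10, minimum total 15, leaving 15138 genes), trimmed mean of M values scaling, its quasi-likelihood test, two-sided, with robust dispersion, p-values adjusted by Benjamini-Hochberg across the tested genes and called under 0.05. CPM values use the same scaling, and 3 counts correspond to 0.181 to 0.200 CPM. Between pairs of libraries of 1 group the variance was 4.47 to 6.17 times that of counting with Akkermansia and 14.8 to 19.9 times with PBS. Each library was kept as a replicate, as the series' design text has it. The spread alone does not show that the libraries came from separate animals. The procedure was tested on simulated counts with known changes. It recovered 0% of 1.2-fold changes, 47.1% of 1.5-fold, 70.4% of 2-fold and 88.6% of 3-fold changes. Of its 110 calls, 8.18% fell on unchanged genes. The simulation held far fewer changes than the data, where 2361 genes were called, so its shares need not carry over. Small changes of members could thus go uncalled. FPKM values were used for levels between genes and ratios. Figures were drawn with matplotlib 3.10.9.

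Members and lists were chosen with earlier results of these data known. Named with values were members past the threshold (there were none), the catalytic subunits Psmb5 to Psmb10, the activators, the Psmg genes, the highest and lowest gene of each particle by FPKM, and up to 4 called genes of each pathway list, those with the smallest p. Other members named were chosen after their values were seen. Paaf1, on a pathway list, was not found in the table. Some genes of the pathway lists are not reported here and are left out of the lists' counts. Alternatives were DESeq2 1.42.0, limma-voom (limma 3.58.1), RLE size factors, library totals, other filters on low counts, leaving out each library, a block for the replicate number, and limma-trend on log2(FPKM + 1) or on log2(FPKM + 0.1). Fold changes on the log2(FPKM + pseudocount) scales understate those of low genes. Summing Psme2 and Psme2b was added after the data were seen.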

Additional observations from a re-analysis of the deposited data

How the results depend on the processing

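No member was called with DESeq2, limma-voom, RLE size factors, library totals, a filter of 1 CPM in 3 libraries or either FPKM scale. The number called higher was 1 with no filter on low counts (Psme2b) and 1 with the replicate block (Psme2), and 0 to 2 in the fits without 1 library. The number called lower was 0 to 3 in those fits. The median of the assembly factors ran from -0.049 to 0.11 in the fits without 1 library, and moved by more than its replicate spread without Akkermansia 1, Akkermansia 2, PBS 2 or PBS 3. The other particle medians moved by less than that spread in the alternatives run, as did the summed levels, recomputed only as CPM and without each library. Of the members named by the rule, the sign turned for 6 that lay close to 0. In the fits without 1 library Psmb10 ran from -0.024 to 0.21 (below 0 without PBS 3), Psme1 from -0.14 to 0.056 (above 0 without PBS 2), Psme4 from -0.059 to 0.14 (below 0 without PBS 1), Psmf1 from -0.11 to 0.0023 (above 0 without Akkermansia 1), Psmg1 from -0.081 to 0.11 (above 0 without Akkermansia 1 or PBS 2) and Psmg4 from -0.088 to 0.24 (below 0 without Akkermansia 2 or PBS 2). Psmg1 was at 0.0046 with no filter. The cause of these turns was not tested.

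Same-numbered libraries deviated from their group means with correlations of 0.0846, 0.0774 and 0.0303 over 15138 genes, so the numbers were not taken to pair the samples. With the replicate block 2538 genes were called against 2361 without it, and Psme2 was the only member whose call changed. Gene levels near the floor of 3 counts (Psma8, Psmb11) could not be compared at this depth.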

Other observations

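Of 4 pseudogenes whose symbols match the pattern and were left out of the members, Psmb6-ps and Psmb5-ps had 0 counts in all 6 libraries. Psmb6-ps2 had counts of 2, 0 and 2 in the Akkermansia libraries against 0, 2 and 0 in the PBS libraries, and Psmb7-ps2 had 0 in each Akkermansia library and 1 in each PBS library.

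The summed FPKM of the 19S lid over that of the 19S ATPases was 0.889 ± 0.0298 with Akkermansia and 0.918 ± 0.0280 with PBS (SD, n = 3). The alpha ring over the 19S ATPases was 1.03, 1.05 and 1.02 with Akkermansia and 1.12, 1.19 and 1.02 with PBS, overlapping through PBS 3.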
